A study of Homo sapiens with 6 samples.

Results

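The genes described here are 51 genes of DNA replication and of the G1/S transition. The list of names is made up of the replicative helicase and its loaders, the sliding clamp and its loaders, the polymerases, the enzymes of nucleotide supply, chromatin assembly factors and G1/S regulators. All 51 names matched 1 row each among the 58735 genes of the deposited table. RNA was sequenced from SK-MES-1, a human line of lung squamous cell carcinoma, in which the labels state a transient knockdown of KRT6A. There were 2 libraries of the knockdown group si1, 2 of the knockdown group si2 and 2 of the control group NC. The labels give neither the sequences behind si1 and si2 nor the time after transfection. They also do not say whether libraries of 1 group came from separate cultures, so p-values measure the spread between these libraries, which may be technical. Levels are in FPKM as the authors computed it, that is, per length of the gene and per depth of the library.

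DNA replication begins when the origin recognition complex, CDC6 and CDT1 load the MCM2-7 ring onto DNA in G1. The kinase CDC7 and the cyclin E-dependent kinase then convert the ring, with CDC45 and GINS, into the active helicase, behind which primase and the polymerases copy both strands on the PCNA clamp. Many of these genes are transcribed under the control of E2F factors as cells pass from G1 into S phase, so that their RNA is a common readout of proliferation in tumour cell lines.

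Recovered from the FPKM values, the reads came to 14948607 to 17401392 per library. The number of genes at 1 FPKM or more was 12333 to 12439, and 7.82% to 8.73% of reads were mitochondrially encoded. KRT6A (chr12:52487174-52493257, hg38) had 0 reads in all 6 libraries, NC included, and 3 reads would have been at most 0.0678 FPKM. The group labels could therefore not be checked from the stated target. Of 8 markers of squamous and basal epithelium only TP63 reached a mean of 1 FPKM, at 7.78 FPKM, and KRT6A and DSG3 were at 0. Their summed level was 5.597 to 6.08 FPKM in si1, 11.7 to 14.02 FPKM in si2 and 6.06 to 6.81 FPKM in NC. Of 6 general epithelial markers 5 reached 1 FPKM, with sums of 370.4 to 376 FPKM in si1, 264 to 277 FPKM in si2 and 355 to 379 FPKM in NC. Of 5 fibroblast markers 2 reached 1 FPKM, COL1A1 at 18.8 and PDGFRB at 1.37 FPKM, COL1A2 was at 0, and the sums were 20.004 to 24.99 FPKM in si1, 22.8 to 23.4 FPKM in si2 and 17.1 to 17.5 FPKM in NC. Of 5 leukocyte markers only CD14 reached 1 FPKM, at 1.17, with CD3E at 0 and sums of 0.939 to 1.71 FPKM in si1, 1.2996 to 1.54 FPKM in si2 and 0.805 to 1.46 FPKM in NC. None of 3 endothelial markers reached 1 FPKM, CDH5 was at 0, and the sums were 0.256 to 0.312 FPKM in si1, 0.265 to 0.334 FPKM in si2 and 0.273 to 0.441 FPKM in NC. The part of these marker levels in the results was not tested.

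Of the 51 genes 5, CCNE2, FEN1, MCM7, RFC5 and TYMS, share at least 5% of their exon bases with a gene on the opposite strand that averaged 1 FPKM or more in these libraries. The share was 39.2% for TYMS with ENOSF1 and 37.0% for CCNE2 with INTS8, and 5.72% to 8.94% for the others. Whether reads were counted by strand is not given in the sources used here, so reads of these pairs cannot be told apart and the values of the 5 genes are uncertain.

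All 51 genes averaged at least 1 FPKM over the 6 libraries and were therefore tested. Their mean levels ran from 1.10 FPKM for CCNE2 and 1.27 FPKM for POLA2 to 64.3 FPKM for TK1 and 67.8 FPKM for POLD2. Read counts behind single values ran from 55 for CCNE2 to 4762 for POLD2. CCNE2, POLA2, CCNE1, POLE2 and ORC6 had the lowest counts, so that counting error weighs most on their values. Differences between libraries of a group add to this, as for POLD3, at 7.36 and 5.28 FPKM in si2. The plot of levels by library shows how the groups are placed for each gene.

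**Figure D1:**
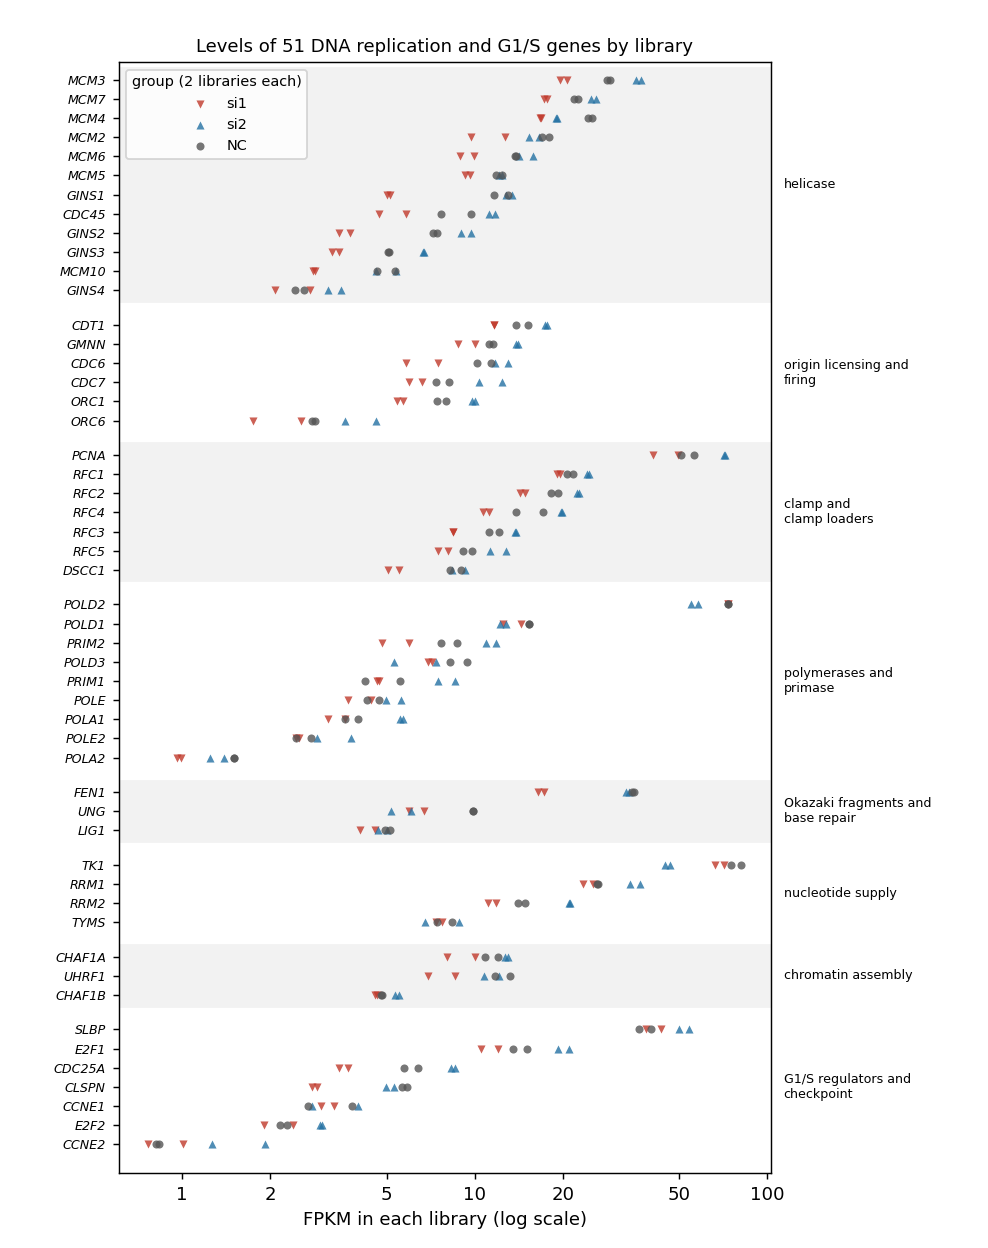
FPKM of each of the 51 genes (rows, grouped by role) on a log axis in every library, with 2 points each for si1, si2 and NC. In most rows the si1 points lie left of the NC points and the si2 points to the right of the si1 points, with TK1, UNG and POLD2 among the rows of another order.

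The si1 and si2 groups moved apart. In si1, 25 of the 51 genes fell against NC and 0 rose. A gene was called by limma's moderated test on log2(FPKM + 1), at a Benjamini-Hochberg adjusted p under 0.05 among the 12319 genes tested. By limma, 0 of the 51 were higher in si1 at an unadjusted p under 0.05, and limma-voom on the recovered reads also called 0 higher. Among all genes tested 22.4% were called in this comparison, 12.9% as lower and 9.47% as higher. In si2, 19 of the 51 rose and 5 fell against NC, where 29% of all genes were called, 13.6% as higher and 15.4% as lower. Between the knockdown groups, 35 genes were higher in si2 and 2 were lower, where 38.5% of all genes were called, 19.9% as higher and 18.6% as lower.

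The median log2 fold change of the 51 genes was −0.32 in si1 against NC, where the median of all genes tested was −0.0071. It was 0.23 in si2 against NC, beside 0.0046 for all genes. In si2 against si1 it was 0.55, beside 0.011 for all genes. Read by library, the median log2 difference of the 51 genes from the NC mean was −0.32 and −0.35 for si1, and 0.23 and 0.24 for si2. Both libraries of each knockdown group thus lay on the same side. The comparisons of si1 and si2 with NC share the NC libraries. RNA of whole cultures was measured, so fewer cells in S phase and less RNA per cell cannot be told apart.

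Both libraries of si1 lay below both NC libraries for 41 of the 51 genes and above them for 0, where 32.4% and 30.1% of all genes tested did so. For si2 both libraries lay above NC for 33 genes and below for 10, where 35% and 34.5% of all genes did. Both si2 libraries lay above both si1 libraries for 44 genes and below for 2, where 36.3% and 33.8% of all genes did.

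The comparison of si2 with si1 lost the smallest share of its calls under the alternatives. With each library left out in turn, 30 to 37 genes were called higher in si2 and 2 lower, with some called only in those fits. In si1 against NC the count of genes that fell was 12 without NC replicate 1 and 15 without NC replicate 2, and 24 to 25 without any of the others. In si2 against NC the count of genes that rose was 6 without NC replicate 1, 4 without NC replicate 2, 4 without si2 replicate 1 and 5 without si2 replicate 2. The calls that held under every alternative in which the gene was tested were those of MCM3, MCM4, GINS1, GINS2, DSCC1, FEN1, CDC25A and CLSPN in si1, those of POLD2, UNG, RRM2 and TK1 in si2, and 30 of the 37 between si2 and si1. Of these, CLSPN in si1, and MCM10, POLA1 and CLSPN between si2 and si1, were not tested with the filter at 5 FPKM.

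Calls also ended under alternatives other than leaving out 1 library. Those of si1 against NC were MCM2, CDC45, CDC6, CDT1, RFC4, PRIM2 and UHRF1 without the filter on low values, and CDT1 in a fit of only the groups compared (adjusted p 0.0546 to 0.0873). Those of si2 against NC were GINS2, GINS3, ORC1, CDT1, GMNN, CDC7, PCNA, RFC4, RFC5, POLA1, PRIM1, PRIM2, POLD1, E2F1, CDC25A and SLBP without the filter on low values, POLD1 with median centring, POLD1 with quantile normalization, CDT1, GMNN, RFC2, RFC4, RFC5 and POLD1 without the variance trend, and RFC4 in a fit of only the groups compared (adjusted p 0.0515 to 0.146). Those of si2 against si1 were MCM2, ORC6, CHAF1A, UHRF1 and SLBP without the filter on low values (adjusted p 0.0686 to 0.0819). Some genes were called only under an alternative. limma-voom on the recovered reads called 28 of the 51 genes lower in si1 against NC. It called 24 higher and 6 lower in si2 against NC, and 39 higher and 2 lower in si2 against si1. Among all genes it called 3743, 4477 and 5477 in these comparisons, against 2758, 3578 and 4743 in the main fit.

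**Figure D2:**
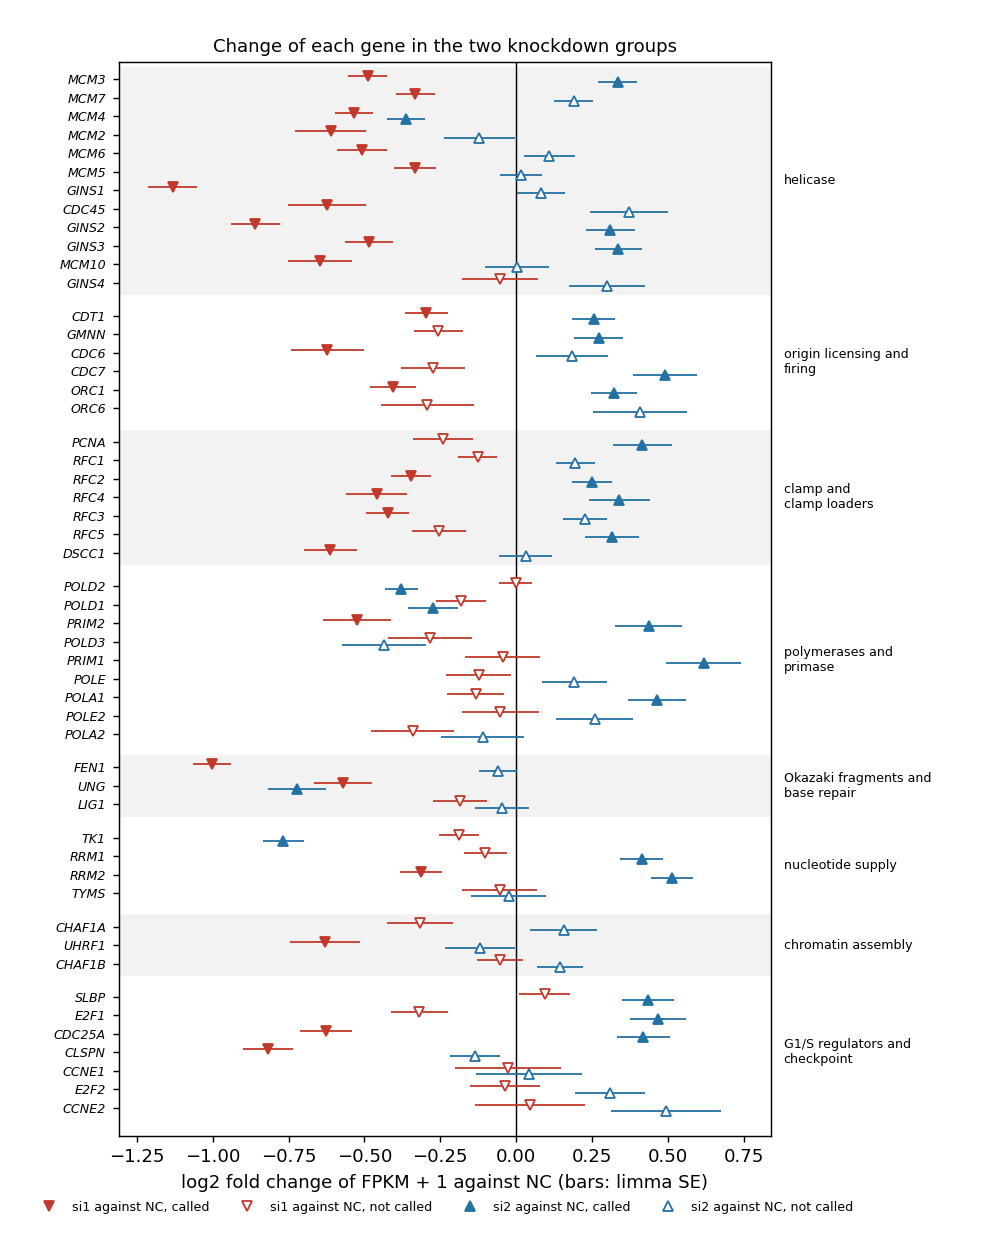
Log2 fold change of FPKM + 1 against NC for each of the 51 genes in si1 and in si2, with limma's SE as bars; filled symbols are genes called at an adjusted p under 0.05 (25 in si1, 24 in si2). The si1 symbols lie mostly left of 0 and the si2 symbols mostly right of 0, while UNG and MCM4 were called lower in both.

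Promoters of the genes were read from RefSeq (GRCh38.p14) as windows from 250 bases before to 50 bases after the start. Windows were found by symbol for 45 of the 51 genes; MCM4, MCM5, GINS4, DSCC1, POLD3 and CCNE2 were not matched. Of the 45, 28 (62.2%) held at least 1 of 4 forms of the E2F site on either strand, searched as TTTCGCGC, TTTGGCGC, TTTCCCGC and TTTGGCGG, while 1106 of 27305 genes with a window (4.05%) did. The forms can overlap, since TTTGGCGC runs into the reverse complement of TTTCGCGC. CCAAT was in the windows of 27 of the 45 (60%) and of 39.7% of all genes, and TTTGAA, the core of the cell cycle element CHR, in 2 of the 45 (4.44%) and in 18.2% of all genes. The 27305 genes are all symbols with a window, whether or not expressed here, so these shares are not matched to the 51 genes by expression or gene type. The letters are a description of these windows, and binding was not measured.

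The windows of 6 genes that the results below turn on are shown, 5′ to 3′ on the strand of the gene, with matched letters in capitals. For genes with several windows the one with most matched letters is given. MCM6 holds TTTGGCGC overlapped by TTTCGCGC of the opposite strand at 2 places, and CCAAT at 2. GINS1, CDC25A and E2F1 hold TTTGGCGC once each, beside CCAAT. RRM2 and TK1 hold CCAAT and none of the 4 E2F forms.
MCM6 (chr2:135876394-135876693, minus strand): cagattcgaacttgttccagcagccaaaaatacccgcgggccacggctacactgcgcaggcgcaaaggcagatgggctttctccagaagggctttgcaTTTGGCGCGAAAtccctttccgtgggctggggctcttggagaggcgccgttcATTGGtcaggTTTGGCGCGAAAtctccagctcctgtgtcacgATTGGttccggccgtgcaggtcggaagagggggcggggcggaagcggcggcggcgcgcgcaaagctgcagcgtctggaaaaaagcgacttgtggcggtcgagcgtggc
GINS1 (chr20:25407423-25407722, plus strand): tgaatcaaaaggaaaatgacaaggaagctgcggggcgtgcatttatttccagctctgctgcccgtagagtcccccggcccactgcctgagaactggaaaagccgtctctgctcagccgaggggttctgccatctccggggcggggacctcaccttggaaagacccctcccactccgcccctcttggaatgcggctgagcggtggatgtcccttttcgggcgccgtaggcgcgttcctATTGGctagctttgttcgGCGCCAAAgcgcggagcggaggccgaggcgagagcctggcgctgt
CDC25A (chr3:48188368-48188667, minus strand): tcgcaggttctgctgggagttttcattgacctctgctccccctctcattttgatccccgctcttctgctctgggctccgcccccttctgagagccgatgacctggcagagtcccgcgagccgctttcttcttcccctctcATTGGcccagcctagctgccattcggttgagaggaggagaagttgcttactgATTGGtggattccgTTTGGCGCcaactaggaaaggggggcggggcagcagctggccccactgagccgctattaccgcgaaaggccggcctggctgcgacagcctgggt
E2F1 (chr20:33686336-33686635, minus strand): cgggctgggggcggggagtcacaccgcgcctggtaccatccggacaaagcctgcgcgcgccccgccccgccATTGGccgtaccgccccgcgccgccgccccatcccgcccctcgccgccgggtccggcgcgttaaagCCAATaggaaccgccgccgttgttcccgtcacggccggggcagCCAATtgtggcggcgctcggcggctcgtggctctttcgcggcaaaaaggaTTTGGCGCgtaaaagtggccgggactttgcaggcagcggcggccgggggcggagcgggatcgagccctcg
RRM2 (chr2:10122489-10122788, plus strand): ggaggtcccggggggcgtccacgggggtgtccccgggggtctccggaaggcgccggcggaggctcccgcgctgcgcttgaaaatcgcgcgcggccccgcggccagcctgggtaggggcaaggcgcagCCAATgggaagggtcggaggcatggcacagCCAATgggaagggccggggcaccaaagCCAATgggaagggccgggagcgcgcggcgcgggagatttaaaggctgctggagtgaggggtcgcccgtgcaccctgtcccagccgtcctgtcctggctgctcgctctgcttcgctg
TK1 (chr17:78187003-78187302, minus strand): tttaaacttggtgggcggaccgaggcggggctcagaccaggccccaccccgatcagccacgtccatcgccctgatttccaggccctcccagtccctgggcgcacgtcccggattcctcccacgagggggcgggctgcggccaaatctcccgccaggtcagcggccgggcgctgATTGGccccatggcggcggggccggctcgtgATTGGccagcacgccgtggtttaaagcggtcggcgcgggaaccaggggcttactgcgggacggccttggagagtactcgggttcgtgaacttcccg

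Genes with and without an E2F form both had positive medians between the knockdown groups. In si2 against si1 the median log2 fold change was 0.61 for the 28 genes with a form, 22 of them higher and 0 lower in si2. It was 0.57 for the 17 without, 11 of them higher and 2 lower. In si1 against NC the medians were −0.34 with and −0.25 without a form, with 15 and 7 genes lower. In si2 against NC they were 0.21 with and 0.32 without, and TK1, UNG, POLD2 and POLD1, which fell in si2, are without one. MCM4, which also fell in si2, had no matched window and is in neither set. These splits were not tested.

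Of the 12 helicase genes 11 (91.7%) fell in si1, where 12.9% of all genes did. Of the 12, 10 were higher in si2 than in si1, where 19.9% of all genes were. GINS1 (chr20:25407727-25452628), a subunit of the GINS complex that completes the active helicase, was at 5.13 and 5.03 FPKM in si1, 12.8 and 13.4 in si2, and 11.6 and 13.04 in NC. Its si1 libraries lay far below the other 4, among which si2 and NC overlapped. GINS1 fell in si1 (log2 fold change −1.13, SE 0.0803, adjusted p = 0.000291) and was not called in si2 (0.08, adjusted p = 0.483). It was higher in si2 than in si1 (log2 fold change 1.21, SE 0.0803, adjusted p = 0.00011).

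GINS2 (chr16:85676198-85690073), from the same complex, was at 3.45 and 3.75 FPKM in si1, 9.697 and 8.998 in si2, and 7.46 and 7.22 in NC. The groups did not overlap, with si1 lowest and si2 highest. GINS2 fell in si1 (log2 fold change −0.86, SE 0.0809, adjusted p = 0.000764) and rose in si2 (0.31, adjusted p = 0.0282). Between si2 and si1, GINS1 led the 51 genes on the log2(FPKM + 1) scale, with GINS2 next at 1.17, and with a pseudocount of 0.1 GINS2 led at 1.354 with GINS1 next at 1.351. GINS3 followed the same order at 3.43 and 3.25 FPKM in si1, 6.65 and 6.69 in si2, and 5.099 and 5.04 in NC, with log2 fold changes of −0.48 in si1 and 0.34 in si2 against NC. GINS4 was not called in any comparison, at 2.74 and 2.07 FPKM in si1, 3.16 and 3.504 in si2, and 2.61 and 2.42 in NC. Its 95% interval was −0.35 to 0.24 log2 units in si1 against NC and 0.001 to 0.60 in si2 against NC. In si2 against si1 the interval of GINS4 was 0.05 to 0.65 (adjusted p = 0.0635).

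The 6 genes of the MCM2-7 ring, which unwinds DNA at the fork, all fell in si1, with log2 fold changes of −0.61 for MCM2, −0.54 for MCM4, −0.51 for MCM6, −0.49 for MCM3, and −0.33 for both MCM5 and MCM7. In si2 they differed among themselves. MCM3 (chr6:52264009-52284881), the one with the highest level, was at 20.7 and 19.6 FPKM in si1, 37.2 and 35.6 in si2, and 28.95 and 28.3 in NC. It fell in si1 (adjusted p = 0.00249) and rose in si2 (log2 fold change 0.34, SE 0.0639, adjusted p = 0.00962). MCM4 (chr8:47960185-47978160) was at 16.9 and 16.7 FPKM in si1, 18.98 and 19.2 in si2, and 25.3 and 24.3 in NC. It fell in si1 (adjusted p = 0.00165) and in si2 (−0.36, adjusted p = 0.00666), and between the knockdown groups it differed by 0.17 log2 units (95% interval 0.03 to 0.32, adjusted p = 0.0645).

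The other ring genes were not called in si2 against NC and were higher in si2 than in si1. MCM2 was at 12.7 and 9.75 FPKM in si1, 15.4 and 16.7 in si2, and 17.96 and 17.1 in NC, and the si2 libraries lay just below NC. MCM5 was at 9.28 and 9.61 FPKM in si1, 12.4 and 12.1 in si2, and 11.9 and 12.4 in NC, with si2 and NC overlapping. MCM6 was at 8.93 and 9.93 FPKM in si1, 15.8 and 14.2 in si2, and 13.9 and 13.7 in NC, so that its si1 libraries stood below the other 4. MCM7 was at 17.7 and 17.3 FPKM in si1, 24.97 and 26.1 in si2, and 21.9 and 22.6 in NC, with si2 above and si1 below NC. Against si1 the si2 log2 fold changes were 0.49 for MCM2, 0.35 for MCM5, 0.62 for MCM6 and 0.52 for MCM7.

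MCM10, which recruits polymerase alpha to the fork, was at 2.79 and 2.84 FPKM in si1, 5.397 and 4.58 in si2, and 5.32 and 4.64 in NC. MCM10 fell in si1 (log2 fold change −0.65, SE 0.105, adjusted p = 0.00616), while si2 and NC overlapped, and it was higher in si2 than in si1 (0.65, adjusted p = 0.00337). CDC45, the partner of MCM and GINS in the helicase, was at 5.82 and 4.71 FPKM in si1, 11.2 and 11.7 in si2, and 7.65 and 9.703 in NC. It fell in si1 (log2 fold change −0.62, SE 0.128, adjusted p = 0.0147), was not called in si2 (adjusted p = 0.068) and differed between si2 and si1 by 0.997 log2 units (adjusted p = 0.00133).

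Several helicase calls ended when 1 library was left out, while the direction was kept. The log2 fold change in si1 stayed within −0.37 to −0.28 for MCM5, −0.58 to −0.44 for MCM6 and −0.35 to −0.29 for MCM7 over the alternatives. In si1 the calls that ended were CDC45 without si1 replicate 2, MCM2, MCM5, MCM6, MCM7, MCM10 and GINS3 without NC replicate 1, and MCM2, MCM5, MCM7 and CDC45 without NC replicate 2 (adjusted p 0.05002 to 0.107). In si2 against NC they were MCM3, GINS2 and GINS3 without si2 replicate 1, GINS2 and GINS3 without si2 replicate 2, MCM3, MCM4, GINS2 and GINS3 without NC replicate 1, and MCM3, GINS2 and GINS3 without NC replicate 2 (adjusted p 0.0561 to 0.157). In si2 against si1 they were MCM5 without si2 replicate 1, and MCM2 without si2 replicate 2 (adjusted p 0.0535 to 0.0793).

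The 6 genes of origin licensing and firing were all higher in si2 than in si1, where 19.9% of all genes were. The differences ran from 0.53 log2 units for GMNN to 0.81 for CDC6. ORC1 (chr1:52372829-52404459), the largest subunit of the origin recognition complex, was at 5.44 and 5.71 FPKM in si1, 9.77 and 10.1 in si2, and 7.43 and 8.01 in NC. The groups did not overlap: ORC1 fell in si1 (log2 fold change −0.41, SE 0.0762, adjusted p = 0.0106) and rose in si2 (0.32, adjusted p = 0.0199). CDC6 (chr17:40287633-40304657), which loads MCM rings with ORC, was at 5.84 and 7.52 FPKM in si1, 13.03 and 11.7 in si2, and 11.4 and 10.2 in NC. CDC6 fell in si1 (log2 fold change −0.62, SE 0.12, adjusted p = 0.0118) and was not called in si2 (0.18, adjusted p = 0.29). CDT1, the other loading factor, was at 11.6 and 11.7 FPKM in si1, 17.4 and 17.7 in si2, and 15.2 and 13.9 in NC. It fell in si1 (−0.30, adjusted p = 0.0263) and rose in si2 (0.26, adjusted p = 0.0356).

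GMNN, which encodes the CDT1 inhibitor geminin, was at 8.77 and 9.999 FPKM in si1, 13.9 and 14.1 in si2, and 11.6 and 11.2 in NC, and it rose in si2 (0.27, adjusted p = 0.0425). CDC7 (chr1:91500893-91525764), the kinase that fires licensed origins, was at 6.59 and 5.95 FPKM in si1, 12.4 and 10.4 in si2, and 8.19 and 7.38 in NC. It rose in si2 (log2 fold change 0.49, SE 0.105, adjusted p = 0.0146) and was not called in si1 (−0.27, adjusted p = 0.109). ORC6, a small subunit of ORC, was at 2.54 and 1.74 FPKM in si1, 4.58 and 3.59 in si2, and 2.78 and 2.85 in NC, and was called in si2 against si1 alone (0.70, adjusted p = 0.0114). Among these genes, the calls that ended in si1 on leaving out a library were CDT1 without si1 replicate 1, CDT1 without si1 replicate 2, CDT1 without si2 replicate 1, CDT1 without si2 replicate 2, CDC6 and CDT1 without NC replicate 1, and ORC1 and CDT1 without NC replicate 2 (adjusted p 0.0533 to 0.175). Those that ended in si2 against NC were ORC1, CDT1, GMNN and CDC7 without si2 replicate 1, ORC1, CDT1 and GMNN without si2 replicate 2, ORC1, CDT1 and GMNN without NC replicate 1, and ORC1, CDT1, GMNN and CDC7 without NC replicate 2 (adjusted p 0.0682 to 0.212). In si2 against si1 it was ORC6 without si2 replicate 1 (adjusted p = 0.0683).

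The clamp and clamp loader genes were higher in si2 than in si1 in 7 of 7 cases, where 19.9% of all genes were. PCNA (chr20:5114953-5126626), the sliding clamp, had the highest level among them at 40.9 and 49.8 FPKM in si1, 71.5 and 71.99 in si2, and 50.9 and 56.2 in NC. Both si2 libraries lay above the other 4, and the si1 libraries below NC. PCNA rose in si2 (log2 fold change 0.42, SE 0.0986, adjusted p = 0.0203) and was not called in si1 (−0.24, adjusted p = 0.128). RFC4 and RFC2 are subunits of the loader that opens the clamp. RFC4 was at 10.7 and 11.2 FPKM in si1, 19.8 and 19.7 in si2, and 13.8 and 17.1 in NC, and RFC2 was at 14.8 and 14.3 FPKM in si1, 22.3 and 22.7 in si2, and 19.3 and 18.3 in NC. Both fell in si1 (−0.46 and −0.35) and rose in si2 (0.34 and 0.25).

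RFC3 was at 8.41 and 8.45 FPKM in si1, 13.7 and 13.9 in si2, and 12.1 and 11.2 in NC and fell in si1 (log2 fold change −0.42, SE 0.0719, adjusted p = 0.00722). RFC5 was at 7.49 and 8.11 FPKM in si1, 11.3 and 12.8 in si2, and 9.15 and 9.83 in NC and rose in si2 (0.32, adjusted p = 0.0357). Both are further loader subunits.

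RFC1, the large subunit, was at 19.5 and 19.1 FPKM in si1, 24.2 and 24.6 in si2, and 21.8 and 20.6 in NC. It was called in si2 against si1 alone (0.32, adjusted p = 0.00773). DSCC1, part of an alternative clamp loader used in sister chromatid cohesion, was at 5.05 and 5.52 FPKM in si1, 8.39 and 9.25 in si2, and 8.97 and 8.25 in NC. DSCC1 fell in si1 (log2 fold change −0.61, SE 0.0873, adjusted p = 0.00359), with overlapping si2 and NC libraries. Without single libraries the clamp calls that ended in si1 were RFC4 without si1 replicate 1, RFC4 without si1 replicate 2, RFC2 and RFC3 without NC replicate 1, and RFC2 and RFC4 without NC replicate 2 (adjusted p 0.0519 to 0.0952). In si2 against NC they were RFC4 without si1 replicate 1, RFC4 without si1 replicate 2, PCNA, RFC2, RFC4 and RFC5 without si2 replicate 1, PCNA, RFC2, RFC4 and RFC5 without si2 replicate 2, PCNA, RFC2, RFC4 and RFC5 without NC replicate 1, and PCNA, RFC2 and RFC5 without NC replicate 2 (adjusted p 0.0528 to 0.209). Between si2 and si1 it was RFC1 without si2 replicate 2 (adjusted p = 0.0511).

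**Figure D3:**
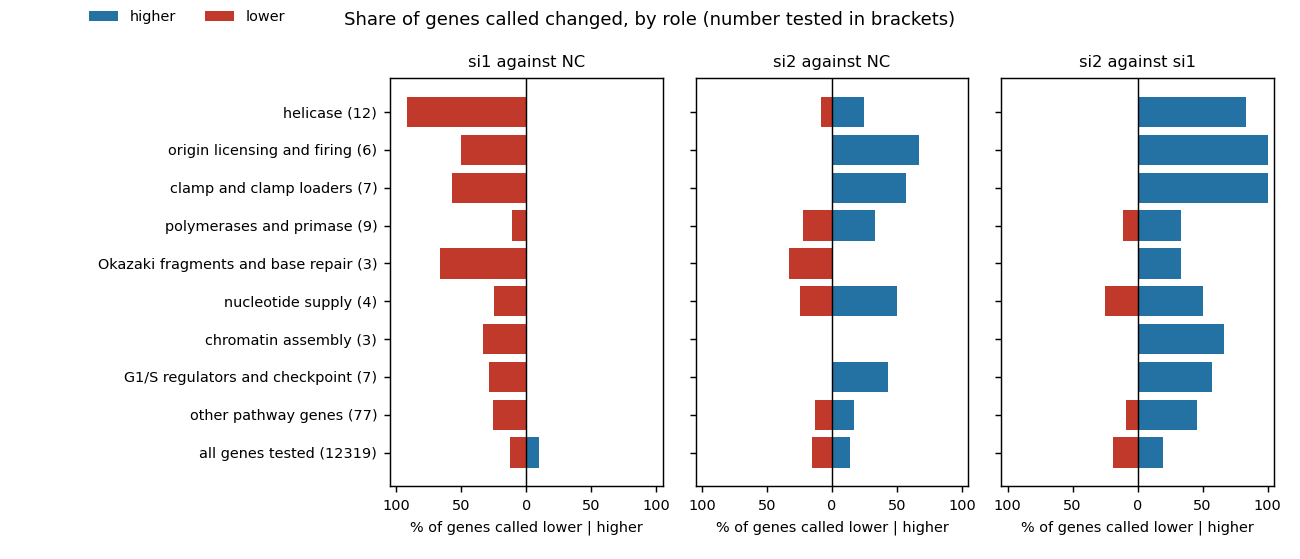
Percent of the genes of each role called lower (left of 0) and higher (right of 0) for si1 and for si2 (each against NC) and for si2 against si1, with the other genes of the pathway and all 12319 genes tested below. In si1 the helicase bar reaches 11 of 12 genes, and in si2 against si1 the bars of licensing and clamp genes reach 6 of 6 and 7 of 7.

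Among the 9 polymerase and primase genes, 1 (11.1%) fell in si1, a share close to the 12.9% of all genes. In si2, 3 of the 9 rose and 2 fell, where 13.6% and 15.4% of all genes did. PRIM1 (chr12:56731596-56752373), the catalytic primase subunit that starts each new strand with polymerase alpha, was at 4.64 and 4.73 FPKM in si1, 7.48 and 8.55 in si2, and 5.57 and 4.23 in NC. The si2 libraries lay above the other 4, and PRIM1 rose in si2 (log2 fold change 0.62, SE 0.123, adjusted p = 0.0115). PRIM2, the other primase subunit, was at 4.81 and 5.98 FPKM in si1, 10.96 and 11.9 in si2, and 8.71 and 7.65 in NC. PRIM2 fell in si1 (−0.53, adjusted p = 0.0168) and rose in si2 (0.44, adjusted p = 0.0262). POLA1, the catalytic subunit of polymerase alpha, was at 3.59 and 3.16 FPKM in si1, 5.54 and 5.7001 in si2, and 4.004 and 3.59 in NC, and it rose in si2 (0.46, adjusted p = 0.0123). POLA2, its regulatory subunit, was at 0.993 and 0.96 FPKM in si1, 1.39 and 1.25 in si2, and 1.505 and 1.502 in NC and was not called.

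The polymerase delta genes POLD1 and POLD2, of the lagging strand enzyme, fell in si2. POLD2 (chr7:44114681-44124358), an accessory subunit, was at 73.3 and 73.7 FPKM in si1, 54.9 and 57.9 in si2, and 73.8 and 73.4 in NC. The si1 and NC libraries overlapped, and both si2 libraries lay below them. POLD2 fell in si2 against NC (log2 fold change −0.38, SE 0.0556, adjusted p = 0.00362) and was lower than in si1 (−0.38, adjusted p = 0.0023), with a 95% interval of −0.13 to 0.13 in si1 against NC. POLD1, the catalytic subunit, was at 14.4 and 12.5 FPKM in si1, 12.2 and 12.8 in si2, and 15.4 and 15.4 in NC and fell in si2 (−0.27, adjusted p = 0.0461). POLD3, another accessory subunit, was at 7.16 and 6.94 FPKM in si1, 7.36 and 5.28 in si2, and 9.42 and 8.22 in NC and was not called (−0.44, adjusted p = 0.054 in si2).

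The polymerase epsilon genes, of the leading strand enzyme, were not called. POLE was at 4.44 and 3.69 FPKM in si1, 4.99 and 5.58 in si2, and 4.72 and 4.29 in NC, and POLE2 was at 2.44 and 2.499 FPKM in si1, 3.77 and 2.89 in si2, and 2.75 and 2.45 in NC. Their 95% intervals in si2 against si1 were 0.06 to 0.57 and 0.01 to 0.61 log2 units.

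Of the polymerase calls in si2 against NC, those that ended with a library left out were POLA1, PRIM2 and POLD1 without si2 replicate 1, POLA1, PRIM1, PRIM2 and POLD1 without si2 replicate 2, PRIM2 and POLD1 without NC replicate 1, and POLA1, PRIM1, PRIM2 and POLD1 without NC replicate 2 (adjusted p 0.0572 to 0.197). In si1 it was PRIM2 without si1 replicate 1, and PRIM2 without NC replicate 1 (adjusted p 0.0528 to 0.112).

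Of the enzymes that finish Okazaki fragments and remove uracil, FEN1 fell in si1 and UNG in both groups. FEN1 (chr11:61792637-61797244), the flap endonuclease of Okazaki fragments, was at 16.4 and 17.3 FPKM in si1, 33.6 and 33.05 in si2, and 34.99 and 34.6 in NC. The si1 libraries lay far below the other 4, and si2 just below NC. FEN1 fell in si1 (log2 fold change −1.002, SE 0.0618, adjusted p = 0.000167), was not called in si2 (−0.06, adjusted p = 0.507), and was higher in si2 than in si1 (0.94, adjusted p = 0.000106).

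UNG (chr12:109097574-109110992), the uracil-DNA glycosylase, was at 5.96 and 6.72 FPKM in si1, 5.18 and 6.06 in si2, and 9.91 and 9.87 in NC. All 4 knockdown libraries lay below NC and overlapped each other. UNG fell in si1 (log2 fold change −0.57, SE 0.0956, adjusted p = 0.00681) and in si2 (log2 fold change −0.72, SE 0.0956, adjusted p = 0.00242), with a 95% interval of −0.38 to 0.08 in si2 against si1. In si1 the call that ended with a library left out was UNG without NC replicate 1 (adjusted p = 0.0525). LIG1, the ligase that joins the fragments, was at 4.57 and 4.05 FPKM in si1, 4.69 and 5.01 in si2, and 4.95 and 5.12 in NC and was not called.

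The genes of nucleotide supply took different directions in si2. RRM2 (chr2:10120698-10131419), the regulatory subunit of ribonucleotide reductase, was at 11.1 and 11.8 FPKM in si1, 21.2 and 21.01 in si2, and 14.9 and 14.1 in NC. The groups did not overlap, with si1 lowest and si2 highest. RRM2 fell in si1 (log2 fold change −0.31, SE 0.0697, adjusted p = 0.0196) and rose in si2 (log2 fold change 0.51, SE 0.0697, adjusted p = 0.00269). RRM1, its catalytic subunit, was at 23.4 and 25.4 FPKM in si1, 33.96 and 36.7 in si2, and 26.3 and 26.2 in NC and rose in si2 (0.41, adjusted p = 0.00672). With a library left out, the calls that ended were RRM2 without NC replicate 1, and RRM2 without NC replicate 2 (adjusted p 0.0726 to 0.137) in si1, and RRM1 without NC replicate 2 (adjusted p = 0.0526) in si2.

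TK1 (chr17:78174075-78187233), the cytosolic thymidine kinase, was at 66.4 and 71.1 FPKM in si1, 44.9 and 46.5 in si2, and 75.5 and 81.4 in NC. Both si2 libraries lay below all others. It fell in si2 (log2 fold change −0.77, SE 0.0664, adjusted p = 0.00051) and was not called in si1 (−0.19, adjusted p = 0.0862). TK1 (−0.58, adjusted p = 0.000838) and POLD2 were the 2 genes of the list that were lower in si2 than in si1. TYMS, the thymidylate synthase, was at 7.35 and 7.75 FPKM in si1, 6.74 and 8.84 in si2, and 7.41 and 8.37 in NC. Its 95% intervals against NC were −0.35 to 0.24 log2 units in si1 and −0.32 to 0.27 in si2.

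**Figure D4:**
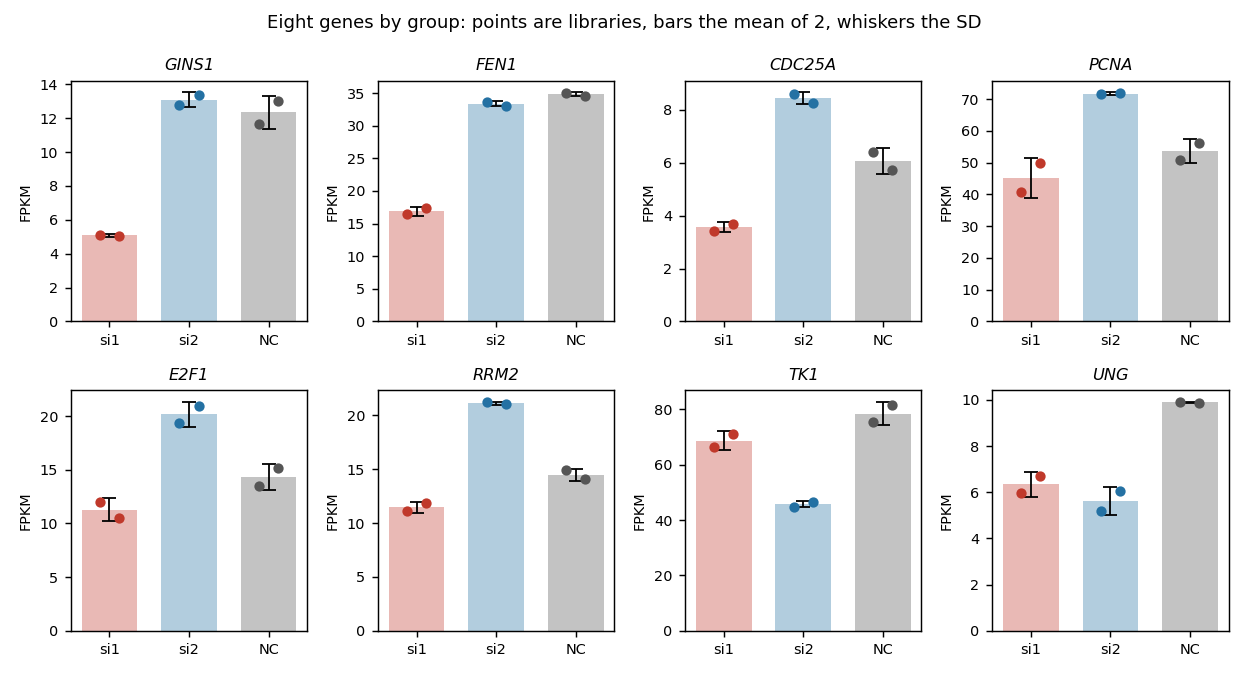
FPKM of 8 of the genes in si1, si2 and NC, with a point for each library, bars for the mean of 2 and whiskers for the SD. GINS1 and FEN1 are low in si1, CDC25A, PCNA, E2F1 and RRM2 are lowest in si1 and highest in si2, TK1 is lowest in si2, and UNG is low in both knockdown groups.

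Of the chromatin genes, UHRF1, which helps copy DNA methylation at the fork, was at 8.56 and 6.92 FPKM in si1, 12.1 and 10.7 in si2, and 11.7 and 13.3 in NC. UHRF1 fell in si1 (log2 fold change −0.63, SE 0.115, adjusted p = 0.00969) and was higher in si2 than in si1 (0.51, adjusted p = 0.0126). CHAF1A, the large subunit of chromatin assembly factor 1, was at 10.03 and 8.01 FPKM in si1, 12.96 and 12.7 in si2, and 10.8 and 12.1 in NC. It was called in si2 against si1 alone (0.47, adjusted p = 0.0135). CHAF1B, another subunit, was not called, at 4.55 and 4.62 FPKM in si1, 5.49 and 5.32 in si2, and 4.81 and 4.78 in NC. With a library left out, calls that ended were UHRF1 without NC replicate 2 (adjusted p = 0.0691) in si1, and CHAF1A and UHRF1 without si2 replicate 1, and CHAF1A without si2 replicate 2 (adjusted p 0.0528 to 0.0754) in si2 against si1.

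Among the G1/S regulators, CDC25A, E2F1, CLSPN and SLBP were higher in si2 than in si1. CDC25A (chr3:48157146-48188402), the phosphatase that activates CDK2, was at 3.43 and 3.703 FPKM in si1, 8.595 and 8.27 in si2, and 6.41 and 5.71 in NC, and no group overlapped another. CDC25A fell in si1 (log2 fold change −0.63, SE 0.0866, adjusted p = 0.00314), rose in si2 (0.42, adjusted p = 0.0128) and was higher in si2 than in si1 (1.05, adjusted p = 0.000239). E2F1 (chr20:33675683-33686404), a transcription factor of S phase genes, was at 12.02 and 10.6 FPKM in si1, 19.3 and 20.98 in si2, and 13.5 and 15.2 in NC. It rose in si2 (log2 fold change 0.47, SE 0.0935, adjusted p = 0.0115) and was not called in si1 (−0.32, adjusted p = 0.05018). E2F2, of the same family, was at 2.39 and 1.91 FPKM in si1, 3.005 and 2.97 in si2, and 2.16 and 2.27 in NC and was not called (adjusted p = 0.0521 in si2 against si1).

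CLSPN (chr1:35720218-35769967), which encodes claspin, a fork protein of the ATR checkpoint, was at 2.77 and 2.88 FPKM in si1, 4.98 and 5.31 in si2, and 5.85 and 5.65 in NC. CLSPN fell in si1 (log2 fold change −0.82, SE 0.0825, adjusted p = 0.000979), and its si2 libraries lay below NC without a call (−0.14, adjusted p = 0.258). SLBP, which binds the stem-loop of histone mRNAs, was at 38.4 and 43.5 FPKM in si1, 53.99 and 50.1 in si2, and 36.5 and 40.02 in NC and rose in si2 (0.44, adjusted p = 0.0102). The cyclin E genes were not called. CCNE1 was at 3.31 and 2.99 FPKM in si1, 2.78 and 3.99 in si2, and 2.699 and 3.82 in NC, and its 95% interval in si2 against si1 was −0.34 to 0.48 log2 units. CCNE2 was at 0.765 and 1.01 FPKM in si1, 1.91 and 1.26 in si2, and 0.83 and 0.816 in NC, from 55 to 133 reads, with the si2 libraries above the other 4.

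Among the regulators the calls that ended with a library left out in si2 against NC were CDC25A and SLBP without si2 replicate 1, E2F1 and CDC25A without si2 replicate 2, E2F1 and SLBP without NC replicate 1, and CDC25A without NC replicate 2 (adjusted p 0.0517 to 0.0919). In si2 against si1 they were SLBP without si1 replicate 1, and SLBP without si2 replicate 1 (adjusted p 0.064 to 0.108).

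With both knockdown groups averaged against NC, 1 of the 51 genes was higher, SLBP, and 12 were lower, where 20.5% of all genes were called, 8.73% as higher and 11.8% as lower. The median of the 51 genes was −0.071 and that of all genes −0.0104. All 4 knockdown libraries lay below NC for 9 of the 51 genes and above for 0, where 14.6% and 14% of all genes did. UNG had the lowest value (log2 fold change −0.65, SE 0.0828, adjusted p = 0.00284), followed by FEN1 (−0.53, adjusted p = 0.0013) and GINS1 (−0.53, adjusted p = 0.00325). Only UNG and MCM4 of the 12 were called lower in each knockdown group against NC. FEN1 and GINS1 were called in si1 and not in si2 (log2 fold changes −0.06 and 0.08 in si2). GINS2, also among the 12, was called higher in si2. The count of lower genes was 5 without NC replicate 1 or NC replicate 2, 7 without si2 replicate 1 and 6 without si2 replicate 2, and SLBP was called in none of these 4 fits. None of the 13 calls held under every alternative run. With the 4 knockdown libraries treated as 1 group, so that the difference between si1 and si2 counted as error, limma called 0 of the 51 genes. At an unadjusted p under 0.05 that fit gave 0 higher and 3 lower. limma-voom, run with the groups apart, called 1 of the 51 higher and 14 lower. It also called more of all genes tested, 3544 against 2529 in the main fit.

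A further 79 genes of the pathway, among them other subunits, E2F family members and regulators of cyclin-dependent kinases, were counted beside the 51, and 77 of them passed the filter. In si1 against NC 0 of the 77 were higher and 20 lower (limma; median −0.19; 2 higher and 30 lower at an unadjusted p under 0.05). The 20 are 25.97% of the 77, beside 12.9% of all genes. In si2 against NC 13 (16.9%) were higher and 10 (12.99%) lower (median 0.081), close to the 13.6% and 15.4% of all genes. In si2 against si1 35 (45.5%) were higher and 7 (9.09%) lower (median 0.28), beside 19.9% and 18.6% of all genes. SKP2, a subunit of the ubiquitin ligase that degrades p27, was at 5.45 and 5.91 FPKM in si1, 22.5 and 20.6 in si2, and 15.1 and 14.5 in NC. It fell in si1 (−1.24, SE 0.0787, adjusted p = 0.000181) and was higher in si2 than in si1 (1.75, SE 0.0787, adjusted p = 3.02e-05). E2F4, mostly a repressor of the E2F family, was at 19.3 and 19.3 FPKM in si1, 40.6 and 43.4 in si2, and 40.3 and 39.2 in NC. E2F7, another repressor, was at 11.6 and 9.89 FPKM in si1, 24.5 and 22.4 in si2, and 23.7 and 23.98 in NC. Both fell in si1 (−1.005, SE 0.0631, adjusted p = 0.000177 for E2F4; −1.08, SE 0.0902, adjusted p = 0.000482 for E2F7).

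Among the highest called values of the 77 in si2 were those of DONSON, a replisome factor (0.69, SE 0.131, adjusted p = 0.00958), and POLD4, the smallest subunit of polymerase delta (0.56, SE 0.166, adjusted p = 0.0439). The lowest were those of SAMHD1, which degrades deoxynucleotides (−1.05, SE 0.103, adjusted p = 0.000773), TONSL, a histone-binding repair factor (−0.63, SE 0.108, adjusted p = 0.00638), and RRM2B, the p53-induced subunit of ribonucleotide reductase (−0.61, SE 0.106, adjusted p = 0.00706). SAMHD1 was at 3.11 and 3.34 FPKM in si1, 1.14 and 1.22 in si2, and 3.43 and 3.63 in NC, with si2 below all other libraries. RRM2B was at 9.29 and 11.3 FPKM in si1, 6.01 and 6.903 in si2, and 10.3 and 10.4 in NC, likewise with si2 lowest. CDKN1C, a CDK inhibitor, was lower in si2 than in si1 (−0.69, SE 0.176, adjusted p = 0.0207).

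Some of these calls also ended without single libraries. In si2 against NC they were DONSON and TONSL without NC replicate 2, and POLD4 on leaving out any 1 of the 6 libraries (adjusted p 0.0513 to 0.202). CDKN1C between si2 and si1 ended without si1 replicate 1 or either si2 library (0.0588 to 0.0818). TFDP1, the dimerization partner of E2F factors, was higher with both groups averaged (0.25, SE 0.0578, adjusted p = 0.0255), which ended without si2 replicate 1 or either NC library (0.0801 to 0.163).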

How the data were processed

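RNA was measured in 6 libraries of SK-MES-1 cells, 2 per group. The authors deposited FPKM per gene with the gene length in bases. The submitters' processing notes give the build as hg38. Aligner, counting program and annotation are not given in the sources used here. FPKM multiplied by length came to whole steps of 1 read in 100% of deposited values, within 0.001 reads, which gave the reads behind each value.

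The test scale was log2(FPKM + 1), on which changes of low genes come out smaller than they are. A mean of 1 FPKM or more in these libraries was required, which left 12319 genes. All libraries entered 1 fit in limma 3.58.1 (R 4.3.3), with a coefficient for each group, a variance trend, and 3 residual and 4.03 prior degrees of freedom. Tests were two-sided, with Benjamini-Hochberg adjustment across all genes tested and a threshold of 0.05. Errors are limma's SE, and 95% intervals are limma's for single genes. In the plot of 8 genes they are the SD of 2 libraries. The fit was also run on simulated reads, with the same spread for every gene and larger changes than most reported here. That run therefore does not measure the error rate of the calls in these data.

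The members and lists were chosen with earlier results of these data known. The text accounts for all 51 members, and from the other pathway genes names the 3 highest and 3 lowest called ones of each comparison, except that 1 gene this rule selects is not reported here. Coordinates are those of the deposited table. Alternatives were a pseudocount of 0.1, no filter, a filter at 5 FPKM, median centring, quantile normalization, no variance trend, limma-voom on the reads, only the 2 groups compared, the 4 knockdown libraries as 1 group, a replicate block, and each library left out in turn.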

Additional observations from a re-analysis of the deposited data

Results flagged for a closer look

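For 10 genes the 2 knockdown groups were called in opposite directions against NC, lower in si1 and higher in si2 (limma, adjusted over all genes tested). The difference between si2 and si1 was then also past the threshold. That follows from the opposite calls, which have the same SE in this fit, and adds no further support. Of all 12319 genes tested 225 (1.83%) met the same rule, and 151 (1.23%), none of them among the 51, met it with si1 higher and si2 lower. Both comparisons with NC use the same NC libraries. On the log2 scale, si2 exceeded si1 by 1.17 for GINS2, 1.05 for CDC25A, 0.96 for PRIM2, 0.83 for RRM2, 0.83 for MCM3, 0.82 for GINS3 and 0.80 for RFC4. The differences were 0.73 for ORC1, 0.60 for RFC2 and 0.55 for CDT1. The labels give si1 and si2 the same stated target, and the cause of the difference was not tested. The calls of GINS2, MCM3 and CDC25A in si1, and of RRM2 in si2, held under every alternative, while the opposite call of each was lost under at least 1. For the other 6 genes, GINS3, ORC1, CDT1, RFC2, RFC4 and PRIM2, both calls were lost under some alternative.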

How the results depend on the processing

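No call of the 51 genes or of the other genes named changed sign under the alternatives run. Without a filter, 29572 genes were tested and fewer were called: 1414 in si1 against NC, 1785 in si2 against NC, with 4 of the 51 genes higher, 3130 in si2 against si1, and 1127 in both groups against NC, with 0 of the 51 genes higher and 6 lower. For both groups against NC, 0 were higher and 7 lower without the variance trend, and pooling si1 with si2 called 84 genes, 0 of the 51 higher and 0 lower. With the replicate block, 0 were higher and 7 lower in both groups against NC, and 24 fell in si1, 15 rose in si2 and 35 were higher in si2 than in si1; the calls of CDT1 in si1, and of GINS2, CDT1, GMNN, RFC2 and POLD1 in si2, ended. The labels do not tie the replicate numbers to shared cultures, and the deviations of same-numbered libraries from their group means correlated at −0.0577 to 0.0503 over 12319 genes, so the numbers were not used as pairs.

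Leaving out each library gave 1114 to 2443 called genes in si1 against NC, with 12 to 25 of the 51 lower, and 1490 to 4047 in si2 against NC, with 4 to 21 of the 51 higher and 3 to 5 lower. It gave 2973 to 4367 in si2 against si1, and 701 to 2844 in both groups against NC, with 0 to 1 of the 51 higher and 5 to 11 lower. The low counts of both groups against NC were 726 without NC replicate 1, 701 without NC replicate 2, 1617 without si2 replicate 1 and 1704 without si2 replicate 2. A lone library left in a group was assumed to vary like the others. Each group has 2 libraries, which limits what can be called, and genes with few reads, such as CCNE2, have wide intervals.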

Other observations

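Within complexes the spread of levels per length differed between groups. The GINS genes ranged 2.11-fold in si1, from GINS4 to GINS1, 3.93-fold in si2 and 4.90-fold in NC. The MCM2-7 genes ranged 2.13-fold in si1, 2.96-fold in si2 and 2.35-fold in NC, with MCM3 highest in each group. RFC1 to RFC5 ranged 2.48-fold in si1, 2.02-fold in si2 and 2.23-fold in NC. POLD1, POLD2 and POLD3 of polymerase delta ranged 10.4-fold in si1, 8.92-fold in si2 and 8.34-fold in NC, from POLD3 to POLD2. POLD4, a subunit outside the list of 51 genes, was not included. It lay below POLD3 in every library, so the range of all the subunits is wider. These ratios are of group means of FPKM and carry no test.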
